A study of Mus musculus with 6 samples.

Results

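The 10 genes described here are Atf4, Ddit3, Asns, Trib3, Chac1, Psat1, Phgdh, Psph, Shmt2 and Mthfd2, the core of the stress response that ATF4 directs and of the pathway that makes serine and passes its carbon to folate. They were picked by symbol from a gene table of 53379 entries. All 10 matched 1 entry each, all 10 are annotated as protein coding, and all 10 had enough counts to be tested among 14537 genes. Total RNA was measured in organoids, which are cultures of epithelial cells grown in a dome of matrigel, from pancreatic tumours of C57/Bl6 KPC mice. KPC tumours arise when Cre recombinase, driven by the Pdx1 promoter of the pancreatic lineage, switches on mutant Trp53 (R172H) among its targets. The 3 heterozygous libraries carried Trp53LSLR172H/+ and Pdx1-Cre. The 3 libraries titled LOH, for loss of heterozygosity, carried Trp53LSLR172H/- and Pdx1-Cre, so that both groups share the Cre and 1 mutant Trp53 allele. The lines are numbered 6, 23 and 34, and each gave 1 library of each genotype. Organoid age, passage and medium other than a complete mouse organoid medium were not given in the sources used here. In the LOH group alone, each sample description ends in an unexplained suffix, and what it marks and the genotype cannot be told apart. No label states whether the lines came from separate mice, so p-values measure only the spread between these libraries, which may be partly technical.

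ATF4 is a transcription factor of the integrated stress response. Kinases that sense unfolded protein, missing amino acids, heme deficit or double-stranded RNA phosphorylate the initiation factor eIF2, which slows protein synthesis in general while translation of the Atf4 message rises, so that the level of Atf4 RNA need not follow that of its protein. ATF4 then pairs with other leucine zipper proteins and switches on genes for amino acid supply and, under lasting stress, for cell death. Serine is made from a glycolytic intermediate by PHGDH, PSAT1 and PSPH in turn, and the mitochondrial enzymes SHMT2 and MTHFD2 pass a carbon unit from serine to folate for nucleotide synthesis. Wild-type p53 is known to act on several genes of serine use and of the stress response, and pancreatic tumours are known to depend on amino acid supply.

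ATF4 is known to bind, with a C/EBP protein, a composite element called CARE. Its letters were searched as TGATGNAA, on both strands, in RefSeq promoter windows of 300 bases (250 before and 50 after a start, GRCm38.p6). All 10 genes had a window, 11 windows in all, and the letters were found in 3 of them, those of Chac1, Trib3 and Asns. Among all 32851 windows of the table, 1304 (3.97%) held the letters. The palindromic cyclic AMP response element TGACGTCA, which cannot match at the same position as CARE, was in none of the 10 genes and in 588 windows (1.79%) of the table. The 3 stretches are shown because they are the members whose window held the letters, and all 3 are stress genes of the set. Capitals mark the CARE match.
Chac1: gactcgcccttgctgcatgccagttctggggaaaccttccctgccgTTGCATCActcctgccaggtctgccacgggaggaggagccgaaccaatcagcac
Trib3: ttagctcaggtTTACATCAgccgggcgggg
Asns: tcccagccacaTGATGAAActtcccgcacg
The Chac1 stretch is chr2:119351003-119351102 on the plus strand, with the match on the opposite strand from 193 to 186 bases before the RefSeq start. The Trib3 stretch is chr2:152344028-152344057 on the minus strand, with the match on the opposite strand at 15 to 22 bases after the RefSeq start, and it ends 7 bases before the GENCODE start. The Asns stretch is chr6:7693214-7693243 on the minus strand, with the match on the gene's own strand from 23 to 16 bases before the RefSeq start. That match ends 29 bases after the GENCODE start, so the annotations differ on whether it is transcribed. A match is a description of letters and not of a bound site.

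The genes do not overlap one another (GRCm38, GENCODE mouse release 21). Of the stress genes, Atf4 is at chr15:80255184-80257541, Ddit3 at chr10:127290774-127296288, Asns at chr6:7675169-7693254, Trib3 at chr2:152337422-152344032 and Chac1 at chr2:119351229-119354381. Of the serine and folate genes, Psat1 is at chr19:15904678-15947337, Phgdh at chr3:98313170-98339990, Psph at chr5:129765558-129787449, Shmt2 at chr10:127517123-127522444 and Mthfd2 at chr6:83305691-83325908. Ddit3 overlaps Mars, a tRNA synthetase gene on the other strand that took 13725 counts over the 6 libraries against 890 for Ddit3. Psph overlaps Cct6a on the other strand, which took 40872.9 counts against 4078.2 for Psph. The library kit keeps strand, but the strand setting of the counting is not given in the sources used here, so the values of Ddit3 and Psph are uncertain where they share sequence with these neighbours. Mthfd2 overlaps a transcript of uncertain status, Gm43890, on the same strand, which took 254 counts against 10051.

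Phgdh and Atf4 were the most abundant of the set, and Trib3, Chac1 and Ddit3 were the scarcest. On the TPM scale (an abundance corrected for transcript length, so genes can be compared within a library), heterozygous organoids held 327.8 ± 48.5 TPM of Phgdh (SD, n = 3), 206.9 ± 20.9 of Atf4 and 175.4 ± 11.9 of Psat1. The ranges of these 3 genes did not overlap. Asns (90.9 ± 10.8) and Shmt2 (90.2 ± 10.9) were level with each other, followed by Mthfd2 at 51.0 ± 4.01 and Psph at 24.1 ± 2.33. Trib3 (7.69 ± 2.13), Chac1 (7.10 ± 1.39) and Ddit3 (6.94 ± 3.46) came last, and neighbours among these 3 overlapped. In LOH organoids Phgdh was again first at 177.5 ± 51.8 TPM, but its range overlapped that of Atf4 at 148.3 ± 18.3. Psat1 followed at 110.9 ± 17.5 and overlapped Asns at 88.1 ± 15.7, then came Shmt2 at 44.9 ± 8.91, Mthfd2 at 29.7 ± 4.51 and Psph at 17.2 ± 6.55. Psph overlapped Ddit3 (10.4 ± 3.29), Ddit3 overlapped Chac1 (9.76 ± 2.87), and Chac1 overlapped Trib3 (7.37 ± 3.19). TPM also depends on what else a library holds, and the median log2 difference of all genes on this scale was -0.35 (with 1 added before the log), so levels between groups are compared below on the CPM scale.

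Total expected counts ran from 13680458 (heterozygous line 23) to 27917277 (LOH line 23), and 3 counts were worth 0.10 to 0.223 CPM. CPM here means counts scaled to a common library size after TMM normalization. Trp53 itself read 77.3, 76.3 and 86.5 CPM in heterozygous lines 6, 23 and 34 and 73.5, 52.5 and 47.4 CPM in LOH lines 6, 23 and 34. Its log2 difference was -0.47 (SE 0.22, adjusted p = 0.227 by edgeR's quasi-likelihood test). Every LOH value of Trp53 was below every heterozygous value, and the difference did not pass. Without LOH line 6 it did (-0.72, adjusted p = 0.0368 by edgeR), where 16.2% of all genes passed. Trp53 passed in only 1 of the 18 alternatives. Mdm2, a target of p53 and its ubiquitin ligase, fell from 70.4 ± 3.17 to 29.3 ± 6.51 CPM (log2 difference -1.26, SE 0.22, adjusted p = 0.0284 by edgeR), and did not pass with the line as a block (0.0905) or without LOH line 23 (0.0569). The 8 epithelial markers were all present and summed to 5247 to 6084 CPM in heterozygous and 5176 to 11407 CPM in LOH libraries. The sums of 8 leukocyte markers were 1.93 to 2.37 CPM and 3.26 to 14.9 CPM, with Lyz2 and Tyrobp at 0 in all libraries and Cd68 reaching 14.7 CPM. The sums of 9 fibroblast markers were at most 0.10 CPM and 0.559 to 0.873 CPM, with Col3a1 and Thy1 at 0 throughout, and those of 6 endothelial markers were 0.223 to 0.300 CPM and 0.605 to 2.91 CPM, with Emcn at 0 throughout. The leukocyte, fibroblast and endothelial sums were thus low but higher in every LOH library. For leukocytes this rested on Cd68, at most 1.84 CPM in heterozygous and 2.97, 6.95 and 14.7 CPM in LOH lines 6, 23 and 34. No other leukocyte marker was higher in every LOH library, and Csf1r was highest in heterozygous line 6. Most of the endothelial sum of LOH line 6 was Tek. The part of these markers in the results was not tested. The sums of 8 acinar markers reached 0.890 and 2.44 CPM, and those of 8 endocrine markers 0.10 and 0.233 CPM. In bulk RNA, fewer cells of a type and less RNA per cell cannot be told apart.

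None of the 10 genes passed the test between the genotypes. The question is whether this stress and serine programme differs once the wild-type Trp53 allele is lost. At an adjusted p of 0.05, edgeR's quasi-likelihood test called 0 of the 10, against 757 of 14537 genes (5.21%), of which 516 (3.55%) were higher and 241 (1.66%) lower in LOH. At an unadjusted p of 0.05, 3 of the 10 passed (Chac1, Shmt2 and Mthfd2), and 25.3% of all genes did. In 3 of the 10 (Phgdh, Shmt2 and Mthfd2) every LOH library was below every heterozygous library, and 16.5% of all genes did not overlap in that direction (32.8% in either). None of the 10 did not overlap in the other direction, where 16.4% of all genes did not. The median log2 difference of the 10 was -0.03, beside 0.06 over all genes tested. DESeq2 called 1 of the 10 (Shmt2, adjusted p = 0.0495), with 14.2% of all genes called, and limma on log2(TPM + 1) or log2(TPM + 0.1) called 2 (Shmt2 and Mthfd2), with 16% and 14.7% of all genes called. With library medians removed from log2(TPM + 0.1), limma called 0 of the 10 (2 passed at an unadjusted p of 0.05) and 4.84% of all genes. When the organoid line was a block in the edgeR model, 0 of the 10 passed and 213 of all genes (1.47%).

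**Figure D1:**
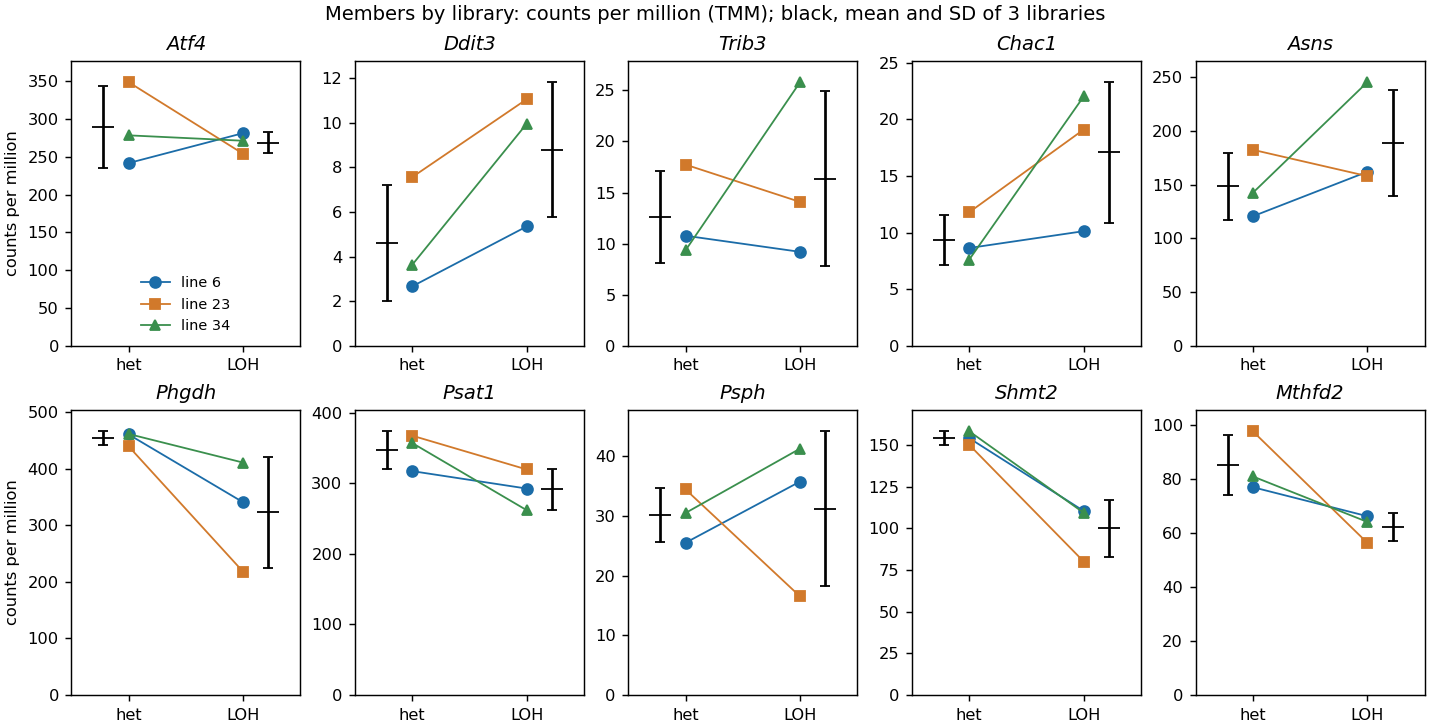
Level of each of the 10 genes in each library, in CPM on linear axes that start at 0, with 1 symbol and 1 connecting line per organoid line, and the mean and SD of 3 libraries in black. The LOH points of Phgdh, Shmt2 and Mthfd2 lie below all heterozygous points, while the groups of the other 7 genes overlap.

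No difference in Atf4 RNA was detected between the genotypes. It read 242, 349 and 278 CPM in heterozygous lines 6, 23 and 34 and 281, 254 and 271 CPM in LOH lines 6, 23 and 34. All 3 LOH values lay inside the heterozygous range, and the highest library was heterozygous line 23. The means were 289.6 ± 54.4 and 268.9 ± 13.8 CPM (SD, n = 3), a log2 difference of -0.11 (SE 0.19, 95% interval -0.56 to 0.35, adjusted p = 0.755 by edgeR). That interval, like those below, is for a single gene and is not adjusted for the number of genes. The sign of this value turned in 2 of the 18 alternatives, reaching 0.09 without line 23.

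Ddit3 and Chac1, both known as late outputs of ATF4 signalling, had higher means in LOH organoids without passing the adjusted test. Ddit3 encodes CHOP, a leucine zipper factor of stress-induced cell death. It read 2.67, 7.57 and 3.64 CPM in heterozygous lines 6, 23 and 34 and 5.36, 11.1 and 9.97 CPM in the LOH libraries of the same lines, from 80 to 293 counts per library. The LOH value was above its own line's heterozygous value in all 3 lines, but heterozygous line 23 was above LOH line 6, so the groups overlapped. The log2 difference was 0.94 (SE 0.47, 95% interval -0.17 to 2.05, adjusted p = 0.261 by edgeR), and it was 1.47 without heterozygous line 23. Chac1 encodes an enzyme that breaks down glutathione. It read 8.64, 11.8 and 7.61 CPM in heterozygous and 10.1, 19.1 and 22.0 CPM in LOH libraries of lines 6, 23 and 34. The groups overlapped only through LOH line 6, which lay below heterozygous line 23. Its log2 difference was 0.87 (SE 0.34, 95% interval 0.07 to 1.68, adjusted p = 0.169 by edgeR). Without LOH line 6 the difference was 1.10 and passed (adjusted p = 0.0357 by edgeR, where 16.2% of all genes passed), and over all alternatives the adjusted p of Chac1 ran from 0.0357 to 0.641.

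Trib3 and Asns were higher in LOH in some lines and lower in others. Trib3 encodes a pseudokinase that ATF4 and CHOP induce and that restrains them in turn. It read 10.8, 17.7 and 9.35 CPM in heterozygous and 9.20, 14.1 and 25.8 CPM in LOH libraries of lines 6, 23 and 34. Only LOH line 34 stood above the heterozygous range, and LOH line 6 was the lowest of all 6. The log2 difference was 0.38 (SE 0.43, 95% interval -0.63 to 1.39, adjusted p = 0.606 by edgeR), and leaving out LOH line 34 gave -0.11, or both libraries of that line -0.29. Asns encodes asparagine synthetase, which makes asparagine from aspartate and glutamine. It read 120, 182 and 142 CPM in heterozygous and 162, 158 and 245 CPM in LOH libraries. LOH line 34 was again the highest library, and the other LOH values lay inside the heterozygous range. The log2 difference was 0.34 (SE 0.25, 95% interval -0.25 to 0.94, adjusted p = 0.427 by edgeR), and it was 0.10 without LOH line 34, 0.19 without heterozygous line 6 and -0.05 by limma on log2(TPM + 0.1).

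Of the 3 enzymes that build serine, Phgdh was lower in every LOH library, Psat1 was lower within each line and Psph was not, and no difference passed the test. Phgdh encodes the enzyme of the first step, phosphoglycerate dehydrogenase. It read 461, 440 and 462 CPM in heterozygous lines 6, 23 and 34 and 341, 218 and 411 CPM in LOH lines 6, 23 and 34. The heterozygous values lay close together (SD 12.4), while LOH values spread widely (SD 97.8), with line 23 the lowest. The groups did not overlap, and the log2 difference was -0.49 (SE 0.25, 95% interval -1.08 to 0.10, adjusted p = 0.268 by edgeR). Without LOH line 23 the difference was -0.27.

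Psat1, the aminotransferase of the second step, read 317, 368 and 357 CPM in heterozygous and 293, 319.8 and 262 CPM in LOH libraries of lines 6, 23 and 34. Each LOH library was below its own line's heterozygous library, but LOH line 23 exceeded heterozygous line 6 by a small margin. The log2 difference was -0.25 (SE 0.17, 95% interval -0.65 to 0.15, adjusted p = 0.384 by edgeR). Psph, the phosphatase of the last step, read 25.5, 34.4 and 30.5 CPM in heterozygous and 35.7, 16.5 and 41.3 CPM in LOH libraries. LOH lines 6 and 34 were the highest of all 6 libraries and LOH line 23 the lowest, which left a log2 difference of 0.05 (SE 0.34, 95% interval -0.76 to 0.86, adjusted p = 0.943 by edgeR). The sign of the Psph value turned in 8 of the 18 alternatives.

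The mitochondrial folate enzymes Shmt2 and Mthfd2 were the members nearest to a call in the lower direction. SHMT2 splits serine into glycine and a carbon unit carried by folate. Shmt2 read 154, 150.1 and 158 CPM in heterozygous lines 6, 23 and 34 and 110.4, 80.0 and 109 CPM in LOH lines 6, 23 and 34. The groups did not overlap, the heterozygous libraries lay close together (SD 4.05), and LOH line 23 was the lowest. The log2 difference was -0.63 (SE 0.19, 95% interval -1.07 to -0.18, adjusted p = 0.0984 by edgeR). Its adjusted p ran from 0.0256 to 0.364 over the alternatives and fell under 0.05 in 3 of the 18. MTHFD2 oxidises that carbon unit and is known as a folate enzyme of embryonic and tumour cells. Mthfd2 read 76.9, 97.6 and 80.9 CPM in heterozygous and 66.2, 56.3 and 64.1 CPM in LOH libraries. Again the groups did not overlap and LOH line 23 was the lowest, while heterozygous line 23 was the highest. The log2 difference was -0.45 (SE 0.18, 95% interval -0.88 to -0.03, adjusted p = 0.175 by edgeR), and it was -0.28 without line 23.

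The size of the change, and in 4 of the 10 genes its sign, differed between lines. Line 23 was the one in which most members were lowest relative to the heterozygous library. Within a line there is 1 library per genotype, so these ratios have no replicate check. Heterozygous line 23, the library with the fewest counts, was the highest heterozygous library for every member but Phgdh and Shmt2. LOH line 23 was the lowest LOH library for Atf4, Asns, Phgdh, Psph, Shmt2 and Mthfd2, and the highest for Ddit3 and Psat1. A low ratio in line 23 can thus come from either library, and their parts were not tested. The median log2 ratio of LOH to heterozygous CPM over the 10 genes in lines 6, 23 and 34 was 0.05, -0.39 and 0.20, beside -0.01, 0.03 and 0.06 over all genes tested. Of the 10 genes, 8 had their lowest ratio in line 23, beside 5137 of 14537 genes, and 0 had their highest there, beside 4485. The other highest ratios were split evenly, 5 in line 6 and 5 in line 34. Of the stress genes, all but Atf4 had their highest ratio in line 34, with log2 ratios of 1.52 for Chac1, 1.46 for Trib3, 1.43 for Ddit3 and 0.78 for Asns. In line 23 the ratio was 0.69 for Chac1 and 0.54 for Ddit3, but -0.21 for Asns and -0.33 for Trib3. The serine and folate genes had their lowest ratios in line 23, except Psat1. They were -1.06 for Psph, -1.01 for Phgdh, -0.91 for Shmt2 and -0.79 for Mthfd2, and for Psat1 the ratio was -0.20 in line 23 and -0.45 in line 34. Atf4 read 0.22, -0.46 and -0.04 in lines 6, 23 and 34. In 4 of the 10 genes (Atf4, Asns, Trib3 and Psph) the lines had ratios of both signs, as did 8064 of all 14537 genes.

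**Figure D2:**
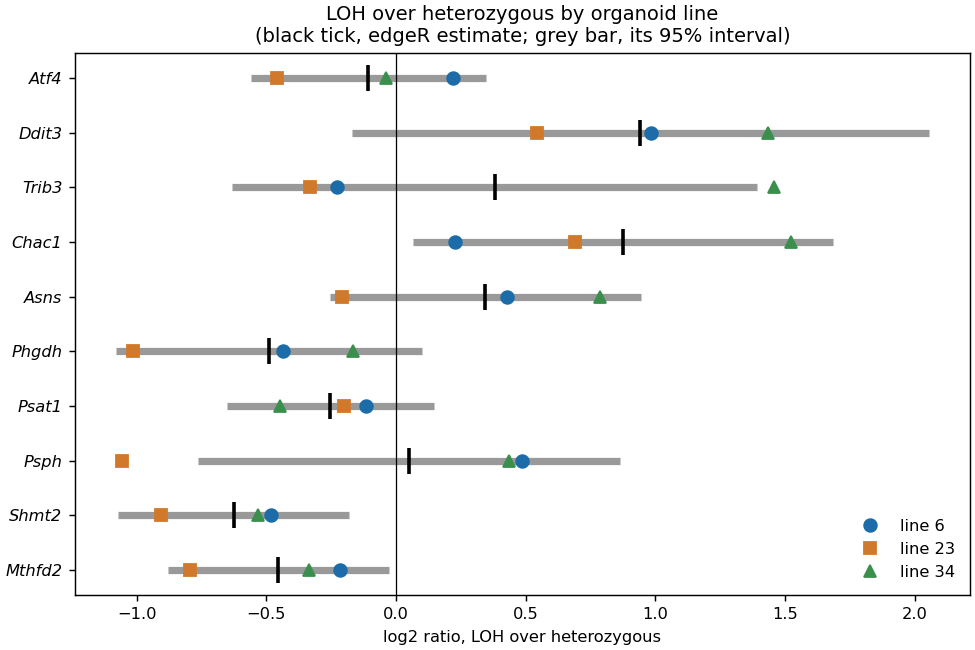
Log2 ratio of LOH to heterozygous CPM for each of the 10 genes in organoid lines 6, 23 and 34, with the edgeR estimate as a black tick and its 95% interval as a grey bar. Chac1, Trib3 and Ddit3 reach 1.43 to 1.52 in line 34, and Phgdh and Psph are at -1.01 and -1.06 in line 23.

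Across the 6 libraries the 10 genes varied in more than 1 pattern. The measure is Pearson's r of log2 CPM over the 6 libraries, which share 3 lines and 2 genotypes, so it is a description, and the sets below were chosen after the 45 pairs were seen. Ddit3, Trib3, Chac1 and Asns varied together, with r from 0.718 to 0.905 over their 6 pairs. Phgdh, Shmt2 and Mthfd2 formed another such set, with r from 0.762 to 0.925 over 3 pairs. Pairs of Ddit3 or Chac1 with Phgdh, Shmt2 or Mthfd2 had r from -0.767 to -0.435. The 3 enzymes of serine synthesis did not move as a unit, since r among Phgdh, Psat1 and Psph ran from -0.281 to 0.693. Atf4 had r from -0.0644 to 0.681 with the other 9, and its closest partner was Mthfd2. Outside the set, the genes most like Atf4 among 10065 with a mean of at least 5 CPM were Fdps (r = 0.980), Gm9385 (0.968), Atp6v1e1 (0.967), Ddrgk1 (0.963) and Gm5601 (0.944). Among those most like Phgdh were Aasdhppt (0.992), Ddx5 (0.990), Gas2l1 (0.989) and Ap2a2 (0.988). These are the top of a ranking of 10065 values of r, each over only 6 libraries. High values are thus found by the search itself, and no link to Atf4 or Phgdh was tested.

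**Figure D3:**
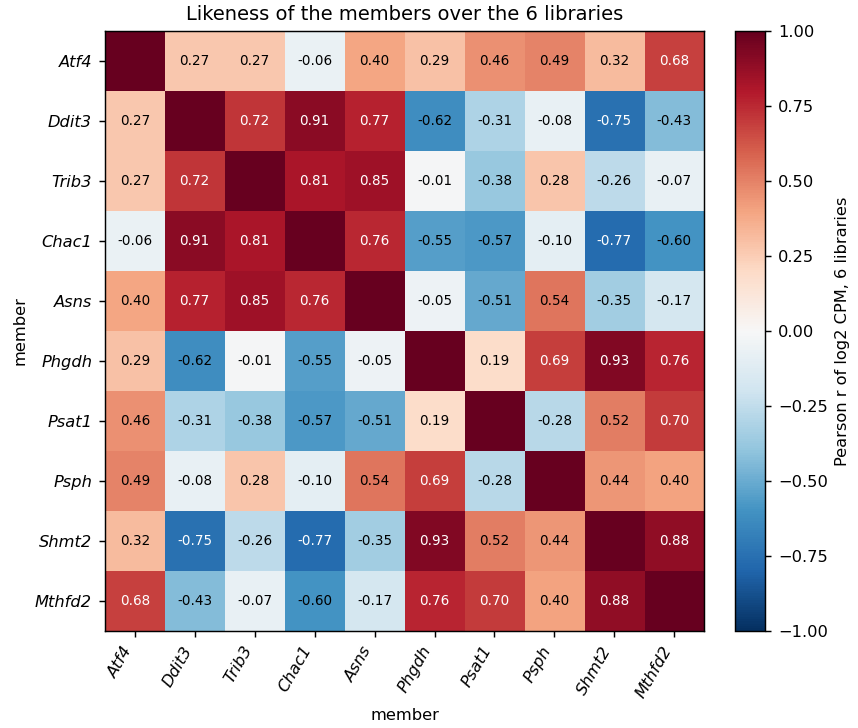
Pearson's r of log2 CPM over the 6 libraries for each pair of the 10 genes, with the colour scale running from -1 to 1. The block of Ddit3, Trib3, Chac1 and Asns and the block of Phgdh, Shmt2 and Mthfd2 hold r of 0.718 or more, and values between Ddit3 or Chac1 and the latter block are below 0.

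In each member the same transcript had the largest mean share in both genotypes, and several members had a second one of at least 10%. Shares are of the gene's summed TPM as estimated by the authors, and shares of similar transcripts are uncertain. Atf4 and Chac1 have 1 annotated transcript each. The main transcript took 97.5% of Asns in heterozygous and 97.6% in LOH libraries (means of 3), 97.1% and 99.2% of Trib3, and 88.9% and 88.3% of Phgdh. Psat1 was split between its first transcript (57.2% and 58.4%) and another (35.6% and 37.2%), and Shmt2 likewise (71.6% and 69.0% beside 15.9% and 17.7%). For Ddit3, a retained-intron transcript took 21.9% ± 8.74 in heterozygous and 11.2% ± 2.34 in LOH libraries. The groups overlapped, at 12.6% in heterozygous line 23 and 12.7% in LOH line 6, and the transcript had 12.8 to 41.5 expected counts per library. The main transcript of Psph took 70.1% to 98.8% in heterozygous and 87.0% to 99.1% in LOH libraries. Mthfd2 was the member whose main transcript separated the groups, with shares of 96.0% to 97.3% in heterozygous and 91.5% to 94.1% in LOH libraries. No other transcript of Mthfd2 had more than 16.81 expected counts in a library, while the main one had at least 1118.83. The separation thus rests on few reads. The remainder of Mthfd2 was mostly annotated as retained intron, and with 3 libraries against 3 the smallest exact p is 0.10, so no test was made.

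The machinery upstream of ATF4 had 1 called gene among 18, a share near the 5.21% of all genes. Of 18 eIF2 kinases, eIF2 and eIF2B subunits and their phosphatases and regulators, all tested, 0 were higher and 1 was lower in LOH by edgeR's adjusted p, with a median log2 difference of -0.06. Eif2b3, a subunit of the exchange factor that phosphorylated eIF2 inhibits, fell from 23.3 ± 3.14 to 8.17 ± 2.05 CPM (log2 difference -1.51, SE 0.26, adjusted p = 0.0284 by edgeR, and 0.0905 with the line as a block). Eif2ak3, the kinase PERK that senses unfolded protein, had a log2 difference of 0.51 (SE 0.31), and Eif2ak4, the kinase GCN2 that senses uncharged tRNA, one of 0.12 (SE 0.19). Ppp1r15a, the phosphatase subunit GADD34 that ends the response, had one of 0.01 (SE 0.38). For none of these 3 was the adjusted p under 0.05 by edgeR.

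Among the leucine zipper partners of ATF4 and the tribbles genes, 17 of 18 were tested, 1 was higher (3.55% of all genes were), 2 were lower (1.66% of all genes were), and the median log2 difference was 0.36. Nfe2l2, which encodes the oxidative stress factor NRF2, had the smallest adjusted p in these lists, reading 345, 356 and 342.5 CPM in heterozygous and 106, 83.4 and 95.5 CPM in LOH libraries. Its log2 difference was -1.87 (SE 0.17, adjusted p = 0.00985 by edgeR and 0.0352 with the block). Cebpa, a C/EBP factor of differentiation, fell from 10.9 ± 1.86 to 4.0 ± 0.61 CPM (log2 difference -1.44, adjusted p = 0.0333 by edgeR, and 0.0852 with the block). Trib1, a relative of Trib3 that targets C/EBP proteins for degradation, rose from 14.5 ± 2.07 to 32.9 ± 3.03 CPM (log2 difference 1.18, adjusted p = 0.0273 by edgeR, and 0.0897 with the block). Cebpa did not pass without LOH line 23 or without line 6 either (adjusted p = 0.0582 and 0.0612 by edgeR). The classic partners had log2 differences of -0.01 for Cebpb, 0.25 for Cebpg, 0.76 for Atf3 and -0.21 for Atf5, none of which passed.

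Most other genes listed here as ATF4 targets had higher values in LOH, and few passed. Of 28, 27 were tested, 18 had a log2 difference above 0 (as did 7850 of all genes), 2 were higher and 0 lower by the adjusted test, 12 did not overlap between groups (10 of them higher), and the median log2 difference was 0.61. Over all genes, 5.21% were called, 32.8% did not overlap and 16.4% did not overlap and were higher, so the calls lie near that background while the non-overlapping higher genes are a larger share of the list. The list was chosen with earlier results of these data known, so that larger share is a description and not a test. Whether ATF4 or another regulator set these values was not tested. The median log2 ratio of the list was 0.19, 0.12 and 0.69 in lines 6, 23 and 34, and 18 of the 27 had their highest ratio in line 34, beside 4256 of all 14537 genes. Line 34 is the line with the highest ratios of Chac1, Trib3, Ddit3 and Asns. Vldlr, a lipoprotein receptor, read 19.5, 21.7 and 12.7 CPM in heterozygous and 80.1, 158.8 and 72.2 CPM in LOH libraries. It rose by 2.53 on the log2 scale (SE 0.38, adjusted p = 0.0219 by edgeR and 0.0341 with the block). Stc2, a secreted glycoprotein, read 39.7, 65.1 and 50.4 CPM in heterozygous and 104.5, 99.1 and 138.7 CPM in LOH libraries. It rose by 1.14 (SE 0.25, adjusted p = 0.0477 by edgeR, and 0.115 with the block), and it passed in 6 of the 18 alternatives. Without LOH line 23 or LOH line 34 the adjusted p of Stc2 was 0.0686 and 0.0784, and without line 6 it was 0.0707, by edgeR.

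Another 4 stress outputs did not pass by edgeR with all libraries, and their values differed widely between libraries. Nupr1, a small stress-induced chromatin protein, read 12, 36.1 and 12.1 CPM in heterozygous and 62.6, 50.7 and 236 CPM in LOH libraries. The groups did not overlap, and LOH line 34 was far above the rest (log2 difference 2.54, SE 0.74, adjusted p = 0.0903 by edgeR). Ddit4, an inhibitor of mTORC1 signalling, read 19.0, 32.9 and 18.6 CPM in heterozygous and 24.9, 41.5 and 86.1 CPM in LOH libraries (log2 difference 1.12, adjusted p = 0.197 by edgeR). Sesn2, another inhibitor of mTORC1 and also a known p53 target, went the other way, at 37.0, 33.9 and 29.8 CPM in heterozygous and 13.7, 18.9 and 24.4 CPM in LOH libraries (log2 difference -0.82, SE 0.25, adjusted p = 0.10 by edgeR). Gdf15, a stress cytokine and known p53 target, read 7.27, 10.9 and 8.08 CPM in heterozygous and 0.175, 1.96 and 6.57 CPM in LOH libraries. Its log2 difference was -1.58 (SE 0.94, adjusted p = 0.332 by edgeR), and the value of LOH line 6 rests on 3 counts. Every LOH value of Sesn2 and of Gdf15 was below every heterozygous value, while the groups of Ddit4 overlapped. In some alternatives these genes passed, Nupr1 in 2 of 18 (adjusted p from 0.00226 to 0.395 over all of them), Sesn2 in 3 (0.0281 to 0.392) and Gdf15 in 1 of 17 (0.0439 to 0.739).

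Amino acid transporters held 2 called genes and tRNA synthetases none. Of 20 transporters, 17 were tested, 1 was higher and 1 lower (beside 3.55% and 1.66% of all genes), with a median log2 difference of 0.04. Slc43a2, a carrier of large neutral amino acids, fell from 13.5 ± 1.98 to 2.36 ± 0.71 CPM (log2 difference -2.51, SE 0.31, adjusted p = 0.0164 by edgeR and 0.0431 with the block). Slc7a7, a carrier of cationic amino acids, rose from 7.85 ± 1.55 to 24.8 ± 8.65 CPM (log2 difference 1.66, SE 0.32, adjusted p = 0.0361 by edgeR, and 0.0675 with the block), and without LOH line 23 or without line 6 its adjusted p was 0.0698 and 0.0860 by edgeR. The carriers best known as ATF4 targets did not pass by edgeR. Their log2 differences were -0.50 for Slc7a11, the cystine carrier, -0.34 for Slc7a5, the leucine carrier, 0.00 for Slc3a2, the partner of both, and -0.59 for Slc1a4, a serine and alanine carrier. Slc1a4 passed by limma on log2(TPM + 1) (adjusted p = 0.0255). All 20 cytosolic tRNA synthetase genes were tested and none passed by edgeR's adjusted p, while 3 passed at an unadjusted p of 0.05. Of the 20, 16 had a log2 difference below 0, 5 did not overlap, all lower, and the median was -0.19. Over all genes, 25.3% passed unadjusted, 6687 of 14537 had a difference below 0 and 16.5% did not overlap and were lower. Their lowest ratio was in line 23 for 15 of the 20. The same held for 8 of the 10 members, 15 of the 27 other ATF4 targets tested and 5137 of all 14537 genes. The transporter and synthetase lists too were chosen with earlier results of these data known, so these shares are descriptions.

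The wider folate and glycine pathway held 2 called genes, both lower, beside Shmt2 and Mthfd2. Of 28 genes, 26 were tested, 12 passed at an unadjusted p of 0.05, 11 did not overlap (10 of them lower), and the median log2 difference was -0.23. Over all genes, 5.21% were called, 25.3% passed unadjusted, 32.8% did not overlap and 16.5% did not overlap and were lower. This list too was chosen with earlier results of these data known, so its shares are a description and not a test. Mthfd1l, which makes formate in mitochondria in the step after MTHFD2, read 75.7, 80.7 and 77.9 CPM in heterozygous and 38.5, 39.1 and 40.3 CPM in LOH libraries. It fell by 0.99 on the log2 scale (SE 0.16, adjusted p = 0.0251 by edgeR, and 0.103 with the block), and its log2 ratio was -0.97, -1.05 and -0.95 from line to line. Mtr, methionine synthase, read 31.3, 27.3 and 30.3 CPM in heterozygous and 10.5, 9.97 and 6.10 CPM in LOH libraries. It fell by 1.74 (SE 0.26, adjusted p = 0.0208 by edgeR, and 0.0614 with the block). The cytosolic counterparts did not pass by edgeR with all libraries. Shmt1, the cytosolic twin of Shmt2, had a log2 difference of -0.72 (SE 0.31, adjusted p = 0.197 by edgeR), and Mthfd1, the cytosolic folate enzyme, one of -0.92 (SE 0.32, adjusted p = 0.137 by edgeR). Aldh1l2, a mitochondrial enzyme that releases the carbon unit as carbon dioxide, read 5.44, 11.6 and 4.57 CPM in heterozygous and 11.4, 33.1 and 50.2 CPM in LOH libraries. Its log2 difference was 2.14 (SE 0.60, adjusted p = 0.0827 by edgeR), in the direction opposite to Shmt2 and Mthfd2. Without LOH line 6, Shmt1 (-1.14), Mthfd1 (-1.34) and Aldh1l2 (2.51) passed, with adjusted p of 0.0231, 0.0246 and 0.0233 by edgeR, where 16.2% of all genes passed. Of the 18 alternatives, Shmt1 passed in 4, Mthfd1 in 3 and Aldh1l2 in 3, beside 3 for Shmt2. Each called gene named above lost its call when any 1 heterozygous library was left out, and without line 23 or line 34, settings in which edgeR called 0 of all genes (2097 to 2966 passed at an unadjusted p of 0.05). By limma on log2(TPM + 1), Trib1, Slc7a7 and Stc2 missed the threshold too, with adjusted p of 0.0855, 0.0893 and 0.0528, and on log2(TPM + 0.1), with 0.0849, 0.0901 and 0.0545. Stc2 also missed it under upper quartile scaling (adjusted p = 0.0506 by edgeR).

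**Figure D4:**
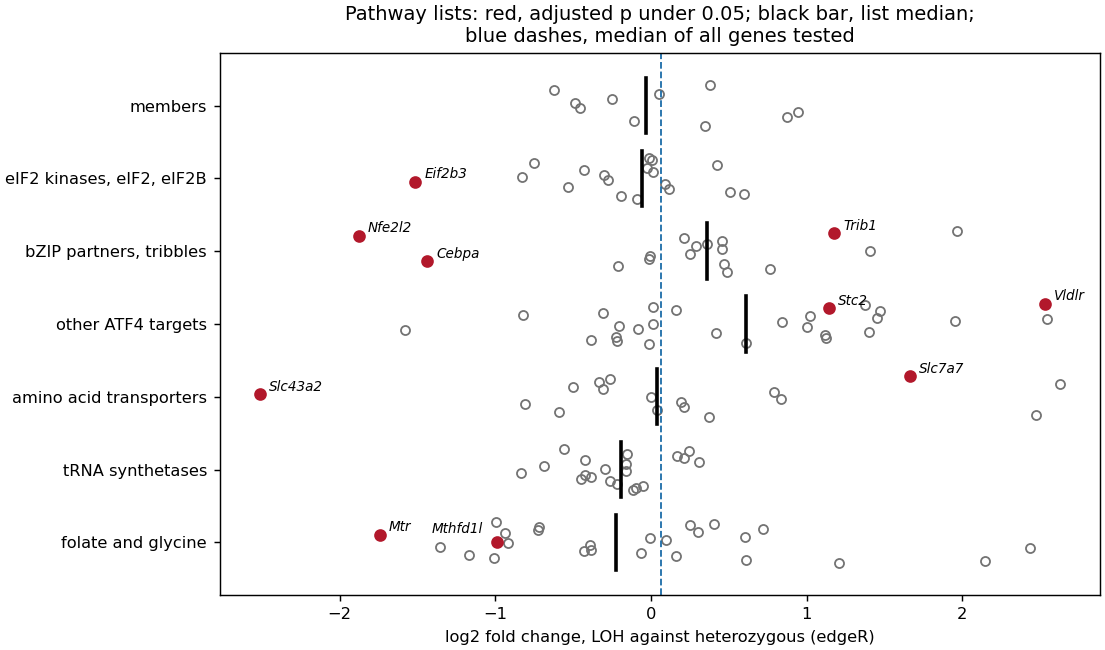
Log2 difference, LOH against heterozygous, for every tested gene of the 10-gene set and of the 6 related lists, with the median of each list as a bar called genes (adjusted p under 0.05) in red, and the median of all genes tested as dashes. The medians lie between -0.23 for the folate genes and 0.61 for other ATF4 targets, beside 0.06 over all genes tested.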

How the data were processed

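Per the labels' protocols, total RNA of 6 organoid cultures was made into stranded libraries. The submitters' processing notes name FastQC 0.11.5, STAR 2.5.2b, RSEM 1.3.0, DESeq2 1.44.0 and GRCm38.p5, and the deposited table names give GENCODE release M16. The authors deposited expected counts per gene and transcript, which are estimated counts and need not be whole, and TPM values, scaled for length and depth. Values of the deposited normalized tables are a signal, and 100% of those above 0 equalled the truncated expected count over 1 size factor per library. They gave the gene names and the protein-coding set. The strand setting of the counting is not given in the sources used here. No column of per-sample values was left unused.

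Libraries were grouped by title into 3 heterozygous and 3 LOH. Expected counts were rounded, filtered with filterByExpr (14537 genes kept), and scaled by TMM. The test was edgeR 4.0.16's two-sided quasi-likelihood test in R 4.3.3, with p-values adjusted over all genes tested by Benjamini-Hochberg and a threshold of 0.05. Log2 CPM used a prior count of 2. Intervals of 95% came from the standard error and the test's degrees of freedom. Alternatives (18) were the line as a block, scaling by RLE or by upper quartile, testing without a filter, a minimum of 10 counts per library, protein-coding genes only, DESeq2 1.42.0, limma 3.58.1 on log2(TPM + 1) and log2(TPM + 0.1) for genes of at least 1 TPM in 3 libraries, and each library and each line left out. Limma on log2(TPM + 0.1) with library medians removed was added after seeing the data. Fits were tested on simulated data. Python 3.11.15, pandas 2.3.3, numpy 2.4.6 and matplotlib 3.10.9 made the tables and figures. Coordinates came from GENCODE M21, which held 53274 of the 53379 gene identifiers, and promoter windows from RefSeq.

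The 10 genes, the lists (eIF2 kinases and regulators, leucine zipper partners and tribbles genes, other ATF4 targets, amino acid transporters, tRNA synthetases, folate and glycine genes) and the markers were chosen with earlier results of these data known. Named were the 10 genes, a fixed set of related genes, Trp53 and Mdm2, up to 5 called genes per list with the same direction in all 3 lines, and the 5 genes most like Atf4 and like Phgdh. An allele shared by all libraries and 1 gene that this rule names are not reported here. The titles give 1 line number to each pair of libraries, which pairs the samples. Deviations from the group means correlated within lines 6, 23 and 34 at -0.295, 0.00943 and 0.294, and at -0.387 to 0.296 between lines. Total expected counts of 13680458 to 27917277 set the precision, and the worth of 3 counts covers counting error only, as reads lacking molecular identifiers are not independent molecules.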

Additional observations from a re-analysis of the deposited data

Results flagged for a closer look

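In 13 of 40 named genes the LOH to heterozygous ratio was above 0 on the log2 scale in at least 1 organoid line and below 0 in another. Of the 40, 8 were named only because they were called with the same direction in all 3 lines, so they could not have both signs. With 1 library of each genotype in a line, differences between lines were not tested. Over all genes, where no such rule applied, 8064 of 14537 had both signs, so the 2 shares are not directly comparable. The gap between the highest and the lowest line, in log2 units, was 0.68 for Atf4, 0.99 for Asns, 1.79 for Trib3 and 1.54 for Psph. Among the zipper factors it was 2.79 for Atf3, 1.45 for Atf5 and 0.34 for Cebpb. Atf3 read 19.6 CPM in heterozygous line 23 and 25.3 CPM in LOH line 34, and 3.54 to 14.2 CPM in the other 4 libraries. Of the transporters, the gap was 2.47 for Slc7a11 and 0.27 for Slc3a2. Slc7a11 read 253 CPM in heterozygous line 6 and 71.5 to 125 CPM in the others. It was 1.38 for Shmt1, 1.27 for Eif2ak3, 0.49 for Eif2ak4 and 1.41 for Ppp1r15a.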

How the results depend on the processing

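The count of genes called, 757, stayed within 1.5 times with a minimum of 10 counts, without a filter, with protein-coding genes only, and under RLE or upper quartile scaling. With the replicate block it was 213, with DESeq2 2266 (1420 higher and 846 lower), with limma on log2(TPM + 1) 1911 (280 higher and 1631 lower) and on log2(TPM + 0.1) 1753 (267 and 1486). The TPM scale moved the median of all genes to -0.35 and -0.42; with library medians removed, an alternative chosen after seeing the data, limma called 577 (340 higher and 237 lower) and 0 of the 10 members. Leaving out 1 library or 1 line gave 0 to 2449 genes. It gave 0 without any 1 heterozygous library (2966, 2637 and 2272 at an unadjusted p of 0.05), without line 23 (2253) and without line 34 (2097), 2449 without LOH line 6, 451 without LOH line 23 and 1422 without line 6. The cause was not tested.

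Of the 10 members, 0 were called by edgeR with all libraries, 1 by DESeq2, 2 by limma on log2(TPM + 1) and 2 on log2(TPM + 0.1), and 0 to 1 with a library or line left out. The replicate block called 0 of the 10 and ended the calls of Eif2b3, Trib1, Cebpa, Stc2, Slc7a7, Mtr, Mthfd1l and Mdm2. It did not change the calls of Nfe2l2, Vldlr and Slc43a2. Over the alternatives no called value of a named gene reversed. The differences of Chac1, Ddit3, Psat1, Phgdh, Shmt2 and Mthfd2 kept their sign in all 18 alternatives of the main list, with Ddit3 from 0.56 to 1.47, Chac1 from 0.38 to 1.10 and Shmt2 from -1.02 to -0.49. Atf4, Asns, Trib3 and Psph changed sign in 2, 2, 4 and 8 of them. Ddit3 had 80 to 293 counts per library, the lowest of the 10.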
